A study of Mus musculus with 4 samples.

Results

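The genes described here are those of tetrahydrobiopterin synthesis and recycling, Gch1, Pts, Spr, Pcbd1 and Qdpr. They were found by platform gene symbol. Each had 1 feature, which gave 5 features of the 16281 in the deposited table, and all 5 had a value on every array. Gch1 and Qdpr were selected on the measured ratios themselves, for being positive on every array of this series with a large smallest ratio, so their ratios are a description. Pts, Spr and Pcbd1 were added as enzymes of the same pathway.

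Tetrahydrobiopterin is a cofactor made from GTP. The aromatic amino acid hydroxylases, which start the synthesis of dopamine, noradrenaline and serotonin, and the nitric oxide synthases depend on it. GTP cyclohydrolase 1 (Gch1) takes the first and rate-limiting step, 6-pyruvoyltetrahydropterin synthase (Pts) the next, and sepiapterin reductase (Spr) the last. After each hydroxylation the oxidised cofactor is restored by pterin-4a-carbinolamine dehydratase (Pcbd1) and then quinoid dihydropteridine reductase (Qdpr). In brain, Gch1 is known for its high level in monoamine neurons, whose cell bodies lie outside the hippocampus, and Qdpr is expressed widely.

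The series held 4 two-colour arrays of total RNA from the dentate gyrus of young male C57BL/6J mice, 1 array each at 1, 2, 4 and 6 h. On each array the Cy3 channel held RNA of saline mice (injected at 5 µL per g) and the Cy5 channel that of mice given MK-801, a blocker of the NMDA receptor channel, at 300 µg per g body weight as the labels print it. The labels count the hours from the last shock given to MK experimental mice, yet call the RNA of both channels that of control mice, so it is unclear if any of the mice studied had been shocked. How many mice stand behind a channel is not stated, no time was repeated and no dyes were exchanged, so dye and treatment cannot be told apart.

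All values below are log2 ratios centred on the array's median. The base of the logarithm and the direction of the ratio are not stated in the sources used here. Base 2 is a reading, and a positive ratio may mean that either the MK-801 or the saline channel was brighter. Signs are therefore those of the table. Over all features with values on both arrays of a pair, the 1 h array correlated with those of 2, 4 and 6 h at r = -0.09, -0.08 and -0.10, while the 3 later arrays correlated with each other at 0.68 to 0.85 (Pearson, across features, as a description). Means, slopes and differences of the members that turn on the 1 h array are given with and without it. Where a gene had several features, these differed on an array with a pooled SD of 0.28, 0.28, 0.32 and 0.29 at 1, 2, 4 and 6 h (938 genes), which is the nearest these data come to an error of a single ratio. It leaves out the spread between mice.

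The upstream sequences of Gch1 and Qdpr are shown because both genes had positive ratios on every array. Each is the 250 bases before the RefSeq start site (build GRCm38.p6), 5′ to 3′ on the gene's strand. Capitals mark matches on either strand to CCAAT (the CCAAT box, ATTGG on the other strand), GGGCGG (the GC box) and TGACG (the core of a cAMP response element).
Gch1, chr14:47189414-47189663, minus strand: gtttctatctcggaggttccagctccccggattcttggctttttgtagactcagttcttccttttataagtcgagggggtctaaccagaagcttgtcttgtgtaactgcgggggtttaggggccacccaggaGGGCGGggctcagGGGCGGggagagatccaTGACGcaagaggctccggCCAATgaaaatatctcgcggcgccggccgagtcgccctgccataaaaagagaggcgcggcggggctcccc
Qdpr, chr5:45450230-45450479, minus strand: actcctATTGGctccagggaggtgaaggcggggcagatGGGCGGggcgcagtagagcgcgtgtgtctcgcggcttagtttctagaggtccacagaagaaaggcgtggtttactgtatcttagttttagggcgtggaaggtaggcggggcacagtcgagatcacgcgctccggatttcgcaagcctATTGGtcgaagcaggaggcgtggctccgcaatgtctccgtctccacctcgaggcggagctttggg

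Both windows held CCAAT and GGGCGG. In Gch1 the CCAAT match began 70 bases before the start site and the TGACG match 88 bases before it. In the rat Gch1 promoter a cAMP response element and a neighbouring CCAAT box are known to carry the response to cAMP. In Qdpr the nearer of 2 CCAAT matches began 65 bases before the start, and TGACG had no match. Of 32851 RefSeq upstream windows of this length, 33.8% held CCAAT, 32.7% GGGCGG and 17.8% TGACG on either strand. The windows of Pts and Spr held GGGCGG and neither of the other motifs, and that of Pcbd1 held none of the 3. The full palindrome TGACGTCA, which contains TGACG, was found in none of the 5 windows and in 1.55% of all.

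The first question was how the synthesis enzymes stood between the MK-801 and saline channels at each time. Gch1 read 0.54, 0.26, 0.30 and 0.36 on the arrays of 1, 2, 4 and 6 h. It was highest at 1 h, and the 3 later ratios lay close together (0.31 ± 0.05, SD over 3 arrays). The mean over the 4 arrays was 0.36 ± 0.12 (SD over arrays), a 1.29-fold difference between channels if the logarithm is base 2. On its arrays Gch1 stood at percentiles 92.3, 85.7, 88.1 and 93.6 of all features with a value, so it was among the higher ratios at every time without lying past the 95th percentile at any. Its ratio was larger than the SD between features of 1 gene at 1 and 6 h, and smaller at 2 and 4 h.

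Pts, the second enzyme of the pathway, read 0.08, 0.31, 0.22 and 0.28 on the arrays of 1, 2, 4 and 6 h. All 4 ratios were positive, with the 1 h array lowest, where Gch1 was highest. The mean was 0.22 (95% interval of the limma fit 0.05 to 0.39), which did not pass (adjusted p = 0.28, limma, over all features). Without the 1 h array the mean was 0.27 ± 0.05 (SD, 3 arrays) and passed (adjusted p = 0.0412, limma), as did 6.61% of all features as positive. Without the 2, 4 or 6 h array the adjusted p was 0.54, 0.71 and 0.75. With array weights, which gave the 1 h array the least weight, Pts also passed (mean 0.26, adjusted p = 0.013, limma), as did 14.3% of all features as positive under that setting.

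Spr, which completes the cofactor, read -0.23, 0.21, -0.11 and -0.06 on the same arrays. It was the one member with a positive ratio at a single time, and all 4 ratios were smaller in size than the SD between features of 1 gene. Its mean was -0.05 with a 95% interval from -0.26 to 0.17 (adjusted p = 0.82, limma), and without the 1 h array it turned to 0.01. The interval holds means of either sign, so these arrays do not settle a sign for Spr.

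**Figure D1:**
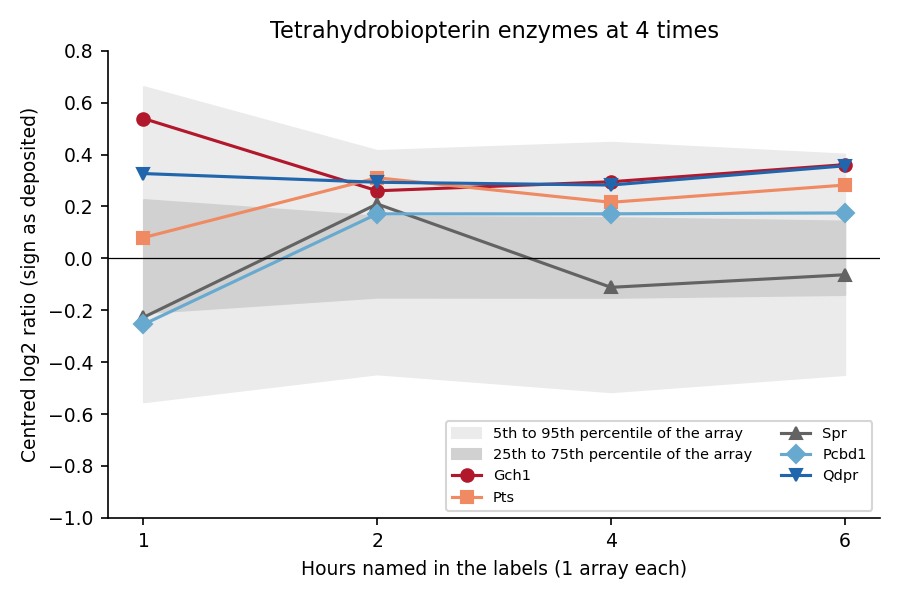
Centred log2 ratios of Gch1, Pts, Spr, Pcbd1 and Qdpr (y axis, sign as deposited) on the arrays of 1, 2, 4 and 6 h (x axis, evenly spaced), 1 feature and 1 array per point. The grey bands hold the middle of all features with a value on each array. Gch1 and Qdpr lie above the 25th to 75th percentile band at every time, and Spr and Pcbd1 are negative at 1 h.

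The recycling enzymes were next. Qdpr read 0.33, 0.29, 0.28 and 0.36 on the arrays of 1, 2, 4 and 6 h. No array stood out: the mean was 0.31 ± 0.03 (SD over 4 arrays), 1.24-fold if base 2. Only 1.46% of the features tested had a smaller SD over the arrays, where the median feature had 0.17. A small SD is part of what chose Qdpr, since a large smallest ratio over the arrays favours features that vary little. Qdpr stood at percentiles 82.4, 88.4, 87.4 and 93.3, and its ratio was larger than the SD between features of 1 gene at 1, 2 and 6 h and smaller at 4 h.

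Pcbd1, which acts just before Qdpr in recycling, read -0.25 at 1 h and 0.17 on each of the 3 later arrays. The 1 h array was low and the later arrays did not differ at this rounding (0.173 ± 0.002, SD over 3 arrays). Of all features tested, 17.2% were likewise negative at 1 h and positive at 2, 4 and 6 h. The mean over the 4 arrays was 0.07 (95% interval -0.17 to 0.30, adjusted p = 0.77, limma), and without the 1 h array 0.17 (adjusted p = 0.084, limma). Qdpr and Pcbd1 differed in sign at 1 h, where the gap between them, -0.58 for Pcbd1 minus Qdpr, was larger than at any later time. Qdpr was chosen for positive ratios on every array, so this difference in sign rests on Pcbd1 alone. At 1 h, 45.6% of all features tested were positive.

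Among the 7684 features tested, 891 were positive on all 4 arrays, and when these were ranked by their smallest ratio Qdpr was 8th, at 0.28, and Gch1 17th, at 0.26. Pts was 331st, at 0.08. Just above Gch1 in this order stood Tmem167 at 0.26 and just below it Slc25a3, the mitochondrial phosphate carrier, also at 0.26. These ranks describe how Gch1 and Qdpr came to be chosen.

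No feature of the series passed for the mean over the 4 times (limma, adjusted p threshold 0.05: 0.0% of 7684, while 14.8% had an unadjusted p below it). The same holds for the slope on log2 hours (0.0%, with 15.4% unadjusted) and for 4 and 6 h against 1 and 2 h (0.0%, with 5.69% unadjusted). Among the members that can be tested, the slopes per doubling of time were 0.06 ± 0.07 for Pts, 0.02 ± 0.09 for Spr and 0.15 ± 0.07 for Pcbd1 (SE), with limma adjusted p of 0.65, 0.91 and 0.37. The later times exceeded the earlier ones by 0.05 for Pts and by 0.21 for Pcbd1, while for Spr the difference was -0.08 (adjusted p 0.92, 0.79 and 0.91, limma). These small values rested on single arrays. For Pcbd1 both the slope and the difference were 0.002 without the 1 h array. The difference was 0.43 without the 2 h array, where 1 h alone stood for early times. Without the 1 h array the slope and the difference were -0.03 and -0.06 for Pts and -0.19 and -0.30 for Spr, and without the 2 h array the differences of Pts and Spr were 0.17 and 0.14. For Gch1 the slope was -0.06 and turned to 0.06 without the 1 h array. For Qdpr it was 0.01. None of the 5 members reached an absolute ratio of 1 at any time, which 0.677%, 0.729%, 0.716% and 0.638% of features did at 1, 2, 4 and 6 h.

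Of the 10 genes listed as tetrahydrobiopterin enzymes and regulators, 7 had a feature, and these included Pcbd2 and Cbr1 beside the 5 members. Gchfr and Akr1b3 were not analysed here. Pcbd2, a second carbinolamine dehydratase, read 0.06, 0.29, 0.07 and 0.12 at 1, 2, 4 and 6 h. Its ratios were all positive and highest at 2 h, and the mean of 0.14 did not pass (adjusted p = 0.41, limma). Cbr1, a carbonyl reductase that can replace Spr in part of its step, read -0.10, 0.28, 0.39 and 0.23. Like Pcbd1 it was negative at 1 h alone. Its mean of 0.20 did not pass (adjusted p = 0.37, limma). Without the 1 h array it was 0.30 and passed (adjusted p = 0.0402, limma), as did 6.61% of all features as positive.

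Leaving aside Gch1 and Qdpr, the other 5 enzymes had medians of -0.10, 0.28, 0.17 and 0.17 at 1, 2, 4 and 6 h, where all features tested had -0.03, -0.01, 0.00 and 0.00. Of these 5, 2, 5, 4 and 4 were positive at these times, against 45.6%, 49.0%, 50.5% and 50.7% of all features. Pts and Pcbd2 were positive on all 4 arrays, as were 11.6% of all features, and Pts, Pcbd1, Pcbd2 and Cbr1 on the 3 later ones, as were 28.8%. Without the 1 h array, 2 of the 5 (Pts and Cbr1) passed as positive, beside 6.61% of all features as positive and 5.4% as negative.

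**Figure D2:**
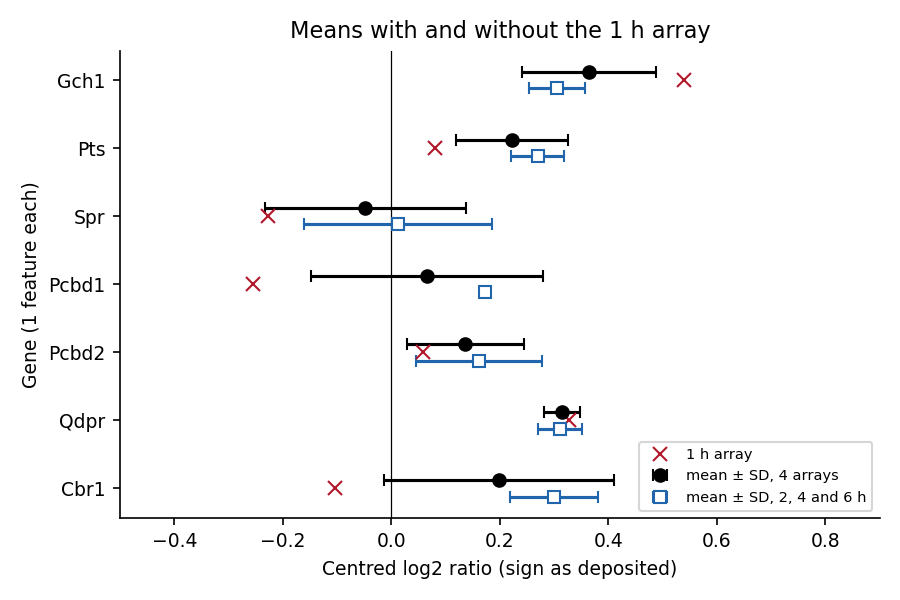
Mean centred log2 ratio (x axis, sign as deposited) of the 7 tetrahydrobiopterin enzymes with a feature (y axis). Black circles give the mean ± SD over 4 arrays, open blue squares the mean ± SD over the 2, 4 and 6 h arrays, and red crosses the 1 h array. Gch1 is the one gene whose 1 h ratio lies clearly above its later mean, at 0.54 against 0.31, and Pcbd1 and Cbr1 lie furthest below theirs.

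The next question concerned the enzymes that use the cofactor. Of 8 listed genes 5 had features, 10 in all, but only 2 of these features had values on all 4 arrays. One was a feature of Nos1, the neuronal nitric oxide synthase, which read 0.17, -0.09, 0.09 and 0.04 at 1, 2, 4 and 6 h (mean 0.05, adjusted p = 0.76, limma). A second Nos1 feature had no value at 1 h and read 0.11, 0.57 and 0.35 at 2, 4 and 6 h, and another had a value at 6 h alone, 0.08. The Nos1 features thus differed most at 4 h. The other fully measured feature was of Nos2, the inducible synthase, which read 0.31, -0.13, 0.22 and -0.03 (mean 0.09, adjusted p = 0.66, limma). A further Nos2 feature had a value at 1 h alone, 0.55. Nos3, the endothelial synthase, read 0.07, 0.15 and -0.30 at 2, 4 and 6 h in 1 feature, and its other feature was listed at 0 on every array.

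For tyrosine hydroxylase, Th, 1 feature read -0.10, 0.12 and 0.15 at 1, 2 and 6 h and another 0.72 at 1 h alone. The Th features thus disagreed in sign at 1 h. Tph1, a tryptophan hydroxylase, had a single value, 0.05 at 2 h. Tph2 and Agmo were not analysed here.

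In monoamine handling 1 of 8 features had values on every array, that of the dopamine transporter gene Slc6a3 (0.30, -0.49, -0.06 and -0.19 at 1, 2, 4 and 6 h). In nitric oxide signalling 13 features of 10 genes were tested, with medians of -0.13, 0.05, -0.13 and -0.05, and 6, 9, 4 and 6 of the 13 were positive at 1, 2, 4 and 6 h. On all 4 arrays 0 of the 13 were positive, beside 11.6% of all features. The largest mean in size, -0.21, was that of 1 feature of Prkg2, a cGMP-dependent kinase. That Prkg2 feature was -0.25 at 1 h, whereas a second one, untested because it lacked later values, stood at 0.53. Next in size came 1 feature of Gucy1b1, a subunit of the nitric oxide receptor, at -0.18. Another Gucy1b1 feature had a mean of 0.02.

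The supply of GTP, from which Gch1 makes the pterin, was covered by 3 tested features, with medians of 0.18, 0.14, 0.04 and 0.11. Guk1, the guanylate kinase, read 0.18, 0.23, 0.15 and 0.33, and Hprt, the purine salvage enzyme, 0.15, 0.14, 0.04 and 0.11. Both were positive on all 4 arrays, as were 11.6% of all features, and neither mean passed (adjusted p 0.26 and 0.43, limma). The remaining feature, of the nucleoside diphosphate kinase gene Nme1, read 0.37, -0.09, -0.07 and 0.02. The related folate and molybdopterin enzymes had medians of -0.19, 0.01, -0.12 and -0.02 over 8 features. Shmt2, the mitochondrial serine hydroxymethyltransferase of folate metabolism, read -0.67, -0.55, -0.63 and -0.74, a ratio of the opposite sign to Gch1 and larger in size on every array (mean adjusted p = 0.19, limma). Mocs2, which makes molybdopterin, another pterin derived from GTP, read 0.10, 0.31, 0.28 and 0.29. Its values resembled those of Pts (mean 0.25, adjusted p = 0.26, limma).

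**Figure D3:**
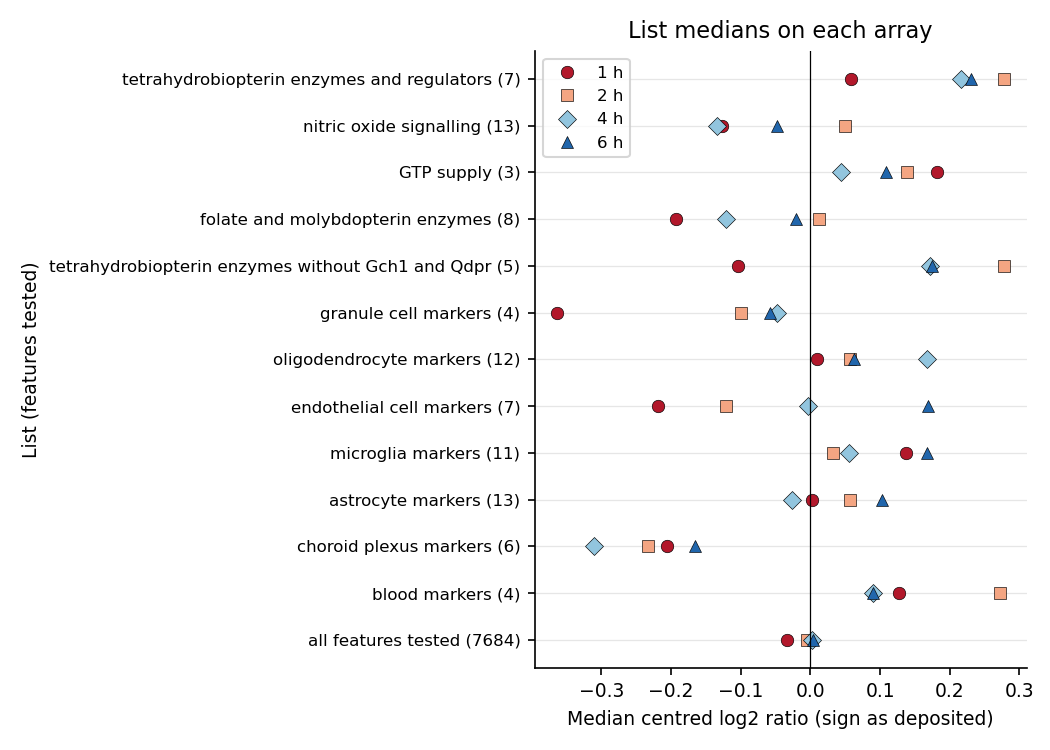
Median centred log2 ratio (x axis, sign as deposited) at 1, 2, 4 and 6 h over the tested features of each list with at least 3 (y axis, number of features in brackets). The tetrahydrobiopterin list holds Gch1 and Qdpr, which were chosen for positive ratios, and the medians of all features tested lie between -0.03 and 0.00.

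The features most like Gch1 and Qdpr were found by the root mean square difference over the 4 arrays, among the features of other genes tested. Nearest to Gch1 were Map2k1, a MAP kinase kinase (0.07), Vhl, the von Hippel-Lindau ubiquitin ligase subunit (0.07), Ap2m1, a clathrin adaptor subunit (0.07), Tyrobp, a signalling adaptor of microglia (0.08), and Rab1a, a GTPase of early secretory traffic (0.08). Each was highest at 1 h, as Gch1 was, which follows in part from picking them as nearest over these same ratios. Nearest to Qdpr were Rnf34, a ubiquitin ligase (0.04), Crmp1, a protein of axon guidance (0.04), Babam1 (0.04), Yipf5, a Golgi membrane protein (0.04), and Rab1a (0.05). Qdpr itself was the 14th nearest feature to Gch1 (0.11), and Gch1 the 61st nearest to Qdpr. Both were chosen on these same ratios by the same rule, so their nearness to each other follows in part from the choice. Pts was the 427th nearest to Gch1 and the 145th nearest to Qdpr. Spr was 5024th nearest to Gch1, and Pcbd1 3448th.

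**Figure D4:**
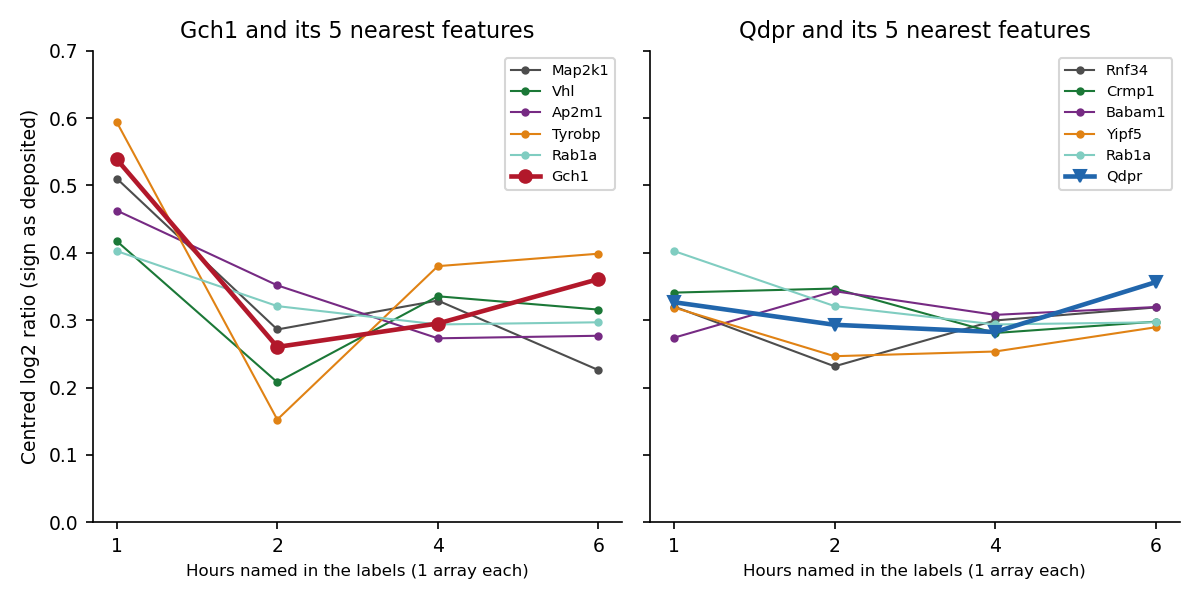
Centred log2 ratios (y axis, sign as deposited) at 1, 2, 4 and 6 h (x axis, evenly spaced) of Gch1 and Qdpr (thick lines) and of the 5 features nearest to each by root mean square difference (thin lines). Gch1 reads 0.54 at 1 h and 0.26 at 2 h, while Qdpr lies between 0.28 and 0.36.

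In a piece of tissue, more cells of a type and more RNA per cell cannot be told apart. Ratios give no level, so the table could not show how strongly markers of the dentate gyrus were expressed. The granule cell markers with tested features (4 features of Prox1, Calb1 and Trpc6) had medians of -0.36, -0.10, -0.05 and -0.06 at 1, 2, 4 and 6 h. Of the 4 features, 0, 1, 1 and 2 were positive at these times. Trpc6 and 1 feature of Calb1 were negative on every array, with means of -0.20 and -0.19, while Prox1, a transcription factor of granule cells, read -0.57, 0.04, 0.60 and 0.21.

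Markers of microglia had medians of 0.14, 0.03, 0.06 and 0.17 over 11 features, of which 7, 6, 6 and 7 were positive at 1, 2, 4 and 6 h. With 1 value per gene the medians were 0.02, 0.02, 0.02 and 0.17. Both Tyrobp features were positive throughout (means 0.36 and 0.38), and so was 1 feature of the protease gene Ctss (mean 0.40), while the features of Csf1r and C1qa, named here for their sign, were negative on every array. The part of microglia in the ratio of Gch1 was not tested. Oligodendrocyte markers had medians of 0.01, 0.06, 0.17 and 0.06 over 12 features, with 6, 8, 10 and 8 positive. The 2 tested Mog features, of a myelin protein, had means of 0.22 and 0.01. For Cnp, another myelin protein, the tested feature was -0.22 at 1 h and positive later (mean 0.19), with 0.56 at 2 h. A second Cnp feature read -0.33 and -0.09 at 1 and 2 h and had no later value. The part of these cells in the ratio of Qdpr was not tested.

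Endothelial markers had medians of -0.22, -0.12, 0.00 and 0.17 over 7 features, and 2, 3, 3 and 6 of these were positive. Flt1, a receptor of vascular growth factors, had a mean of -0.22, and Cldn5, a junction protein, read -1.05 at 1 h (mean -0.16). Esam and Tek, named here for their sign, were negative at 1 h and positive later, with means of 0.14 and 0.07. Astrocyte markers had medians of 0.00, 0.06, -0.03 and 0.10 over 13 features, of which 7, 10, 6 and 11 were positive. Aldoc, a glycolytic enzyme, and the filament gene Gfap were highest (means 0.30 and 0.26), and the water channel gene Aqp4, named here for its sign, was negative on every array (mean -0.12). Choroid plexus markers had medians of -0.21, -0.23, -0.31 and -0.17 over 6 features, of which 1 was positive at each time. Largest in size were the means of a Kl feature (-2.16) and the transport protein gene Ttr (-0.60). That Kl feature read 0.20 at 1 h and -2.64, -3.03 and -3.18 later. Another Kl feature had a mean of -0.16, and a further one read 0.05 and -0.55 at 1 and 2 h, with no later value. Blood markers gave 0.13, 0.27, 0.09 and 0.09 over 4 features, with a haemoglobin feature (Hba-a1) at a mean of 0.26 and Car1 at -2.26. Car1 read 0.59 at 1 h and -2.81, -4.09 and -2.74 later. Of 12 mast cell features only that of Kit had a value on every array (mean -0.04), so mast cells could not be followed. The part of these cell types in the members' ratios was not tested.

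Features with neighbouring numbers can share a place on the array. Among features numbered within 20 of Gch1, the medians were 0.15, -0.08, 0.09 and -0.04 at 1, 2, 4 and 6 h, and Gch1 was above 31 of 35, 25 of 31, 20 of 24 and 25 of 27 of them. For Qdpr the neighbours' medians were 0.05, -0.07, 0.05 and -0.03, and it was above 21 of 30, 22 of 24, 22 of 28 and 24 of 25. Both genes were chosen for high ratios on every array, so a place above most neighbours follows from the choice. The part of array position in their ratios was not tested. With each array centred on the running median of neighbouring features in place of 1 median, the means of Gch1 and Qdpr were 0.33 and 0.32.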

How the data were processed

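Log ratios of the 2 channels of 4 two-colour arrays were taken from the table the authors deposited; they are read here as log2, and the authors' scanning, background correction and normalisation are not given in the sources used here. An exact 0 (24.9 to 37.4% of values on an array) was read as no value. Each array was centred on the median of its values. Of 16281 features, 13738 had 1 gene symbol in the platform annotation, 13694 of these matched GRCm38.p6 genes by Entrez identifier, and 7684 had a value on all 4 arrays and were tested. In limma 3.58.1 (R 4.3.3), lmFit and eBayes tested each feature's mean over the 4 times against 0, its slope on log2 hours, and 4 and 6 h against 1 and 2 h, two-sided, with Benjamini-Hochberg adjustment over all 7684 features at 0.05. The code was tested on simulated ratios. The spread between arrays of different times was the error.

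The members and lists were chosen with earlier results of these data known. Gch1 and Qdpr were chosen on these ratios, so their values are given with no test. Named were all features of the tetrahydrobiopterin enzymes and dependent enzymes, the 5 features nearest in pattern to Gch1 and to Qdpr, and the 2 genes of each other list with the largest absolute mean. Other centring, scaling, feature sets and weights, and leaving out each array, were tried as alternatives.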

Additional observations from a re-analysis of the deposited data

Results flagged for a closer look

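Among the 5 members, 2 had ratios of opposite sign at different times. Spr read 0.21 at 2 h and was negative at 1, 4 and 6 h. Pcbd1 read -0.25 at 1 h and was positive at 2, 4 and 6 h. With 1 array per time, the difference of a single time from the others was not tested.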

How the results depend on the processing

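Over 14 alternatives per value, the means of Gch1 and Qdpr were 0.31 to 0.40 and 0.30 to 0.33. Both genes were chosen for positive ratios on every array, which left little room for another sign. These ranges are a description and no support. The mean of Pts was 0.19 to 0.27 over all alternatives and without single arrays (adjusted p 0.013 to 0.75, limma). All 4 ratios of Pts were positive, so leaving out or weighting arrays could not turn the sign of its mean. The mean of Pts passed with array weights (0.26) and without the 1 h array (0.27). That of Pcbd1 stayed positive and did not pass in any (0.03 to 0.17). That of Spr ran from -0.134 to 0.0115 without single arrays. Counts of called features for the mean over times were 0 in the main setting, 2088 with array weights, 9 with quantile normalisation, 15 with values on at least 3 arrays, and 0 to 923 without single arrays, the 923 without 1 h. For late against early they were 2 with exact 0 read as a value and 0 to 1332 without single arrays, the 1332 without 2 h, where 1 h alone stood for early times and was taken to have the late arrays' spread. For the slope they were 0 to 1 without single arrays. The small differences with time turned in places, none past the threshold. Centred on neighbouring features, Pts gave -0.0305 late minus early and a slope of -0.00574. Without single arrays these ran from -0.0613 to 0.169 and from -0.0260 to 0.0757. The slope of Spr was -0.0471 with array weights, -0.0105 with quantile normalisation and -0.188 to 0.0620 without single arrays, and its late minus early difference was -0.297 to 0.140. That of Pcbd1 was 0.00187 to 0.428. With 1 value per gene the astrocyte median at 4 h was 0.02 in place of -0.03, and that of the choroid plexus markers -0.46 in place of -0.31. The cause of these changes was not tested. No paired analysis was possible because each time has 1 array. Signal over background could not be examined, since intensities were not used here, and natural logarithms would make every size larger by a constant factor.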

Other observations

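Genes of the listed pathways with incomplete values included some of the most negative ratios seen in them. These were picked after their values were seen. Slc6a2, the noradrenaline transporter gene, had 3 features. One was listed at 0 for 1 h and gave -2.28, -2.25 and -2.38 on the later arrays, where 0.31%, 1.39% and 0.88% of all values were lower. Another read -0.77 and -0.83 at 2 and 6 h. The third was listed at 0 on every array. Slc7a1, a transporter of arginine, the substrate of nitric oxide synthases, read -2.23 at 4 h in a feature with no other value. On that array 1.43% of all values were lower, and a second Slc7a1 feature read -0.11. Gda, the guanine deaminase, read -0.60, -0.41 and -0.33 at 2, 4 and 6 h, while Impdh1, an enzyme of guanine nucleotide synthesis, read 0.44, 0.15 and -0.06.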
